A study of Chlorocebus sabaeus with 10 samples.

Results

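The 9 tricarboxylic acid cycle enzymes examined here were CS, IDH2, IDH3A, IDH3B, IDH3G, OGDH, SUCLG1, FH and MDH2, a set of named mitochondrial enzymes and subunits that does not cover every step of the cycle. They are given by a list of names, and no measured value enters the rule. Each was found in the table of estimated transcript counts by its gene symbol, and the transcript with the highest mean count would have been used, but each had 1 transcript. They are 9 of 23352 gene symbols and 9 of 28078 transcripts in that table. The study fed 10 female vervet monkeys (Chlorocebus sabaeus), an Old World primate, a high fructose (HFr) diet (n = 5) or a chow diet (n = 5) for 6 weeks, after all had been kept on chow. Each animal gave 1 liver biopsy and 1 stranded poly(A) RNA-Seq library, so the replicates are animals. The animals are described as age-matched, although the mean age reported was higher on HFr than on chow, without a significant difference. No allele is named, and the drugs named are anti-inflammatory and opioid analgesics, given as needed in recovery. The biopsies are whole tissue, so fewer cells of a type and less RNA per cell cannot be told apart in any of the values.

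The tricarboxylic acid cycle runs in the mitochondrial matrix. It oxidizes the acetyl group of acetyl-CoA, made from pyruvate, fatty acids and amino acids, to carbon dioxide, and hands the electrons to the respiratory chain as NADH and as reduced flavin. In the liver the same intermediates are drawn off for glucose, fatty acid, heme and amino acid synthesis, and are refilled from pyruvate and amino acids. All the enzymes are encoded in the nucleus and imported, so their mRNAs are counted among the nuclear transcripts and not among those of the mitochondrial genome.

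None of the tested cycle enzymes differed between the diets at an unadjusted p under 0.05, and IDH3A had too few counts to be tested. Of the 9, 8 had enough counts to be tested with edgeR's quasi-likelihood test. Their log2 fold changes, HFr against chow, lay between -0.18 and 0.20. The number with an unadjusted p under 0.05, which is the threshold the study used, was 0. The smallest p among them was 0.288, for SUCLG1, and the smallest after Benjamini-Hochberg adjustment over all 7948 tested transcripts was 0.9996. Among all tested transcripts 4.29% had an unadjusted p under 0.05, with 2.06% higher and 2.23% lower on HFr, and 0% passed after adjustment. The fold change was positive for 4 members and negative for 4. Their median absolute log2 fold change was 0.17, beside 0.17 over all tested transcripts. For all 9 members the ranges of the diets overlapped, while 0.541% of tested transcripts had no overlap.

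The size of change that these data leave possible is given by the 95% intervals of the fold changes. For all 8 tested members the interval stayed within a 2-fold change in either direction, and for 7 it stayed within 1.6-fold. IDH2, with an interval from 0.550-fold to 1.73-fold, was the exception. A p that misses the threshold does not show that a level was the same on both diets, and changes inside these intervals remain possible.

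The total per animal ranged from 2977282 to 4992505 estimated counts, of which 864571 to 2657103 fell on nuclear transcripts. The share on the mitochondrial genome varied from 34.7% to 73.6% between animals and had nearly the same mean on HFr (55.5% ± 11.8, SD, n = 5) and chow (55.4% ± 16.5, SD, n = 5; two-sided exact permutation test, p = 0.992). The 8 hepatocyte markers examined, ALB, TF, TTR, SERPINA1, APOB, CPS1, ASGR1 and TAT, were all detected. Their summed level was 38275 to 59433 normalized counts on HFr and 33241 to 67049 on chow. Most of this sum came from ALB, with 21647 to 37815 on HFr and 22730 to 45270 on chow, so it does not stand for the list. Of the 8 markers, 0 had an unadjusted p under 0.05 from edgeR, and 6 fold changes were positive and 2 negative. A normalized count is the estimated count divided by the library size, which was scaled by the TMM method, and given as CPM. It is not divided by transcript length, so a difference in normalized counts between genes is not a difference in level.

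Citrate synthase, encoded by CS, condenses acetyl-CoA with oxaloacetate and so opens the cycle. The gene lies on the minus strand of chromosome 11 of the ChlSab1.1 assembly, from 52222724 to 52253307. In HFr animals 1 to 5 its level was 28.6, 29.6, 22.6, 28.0 and 38.2 normalized counts, and in chow animals 1 to 5 it was 32.0, 39.0, 30.8, 30.3 and 33.5. HFr animal 5 was above all but 1 of the chow animals, and the other 4 HFr animals lay below all 5. The means were 29.4 ± 5.61 (SD, n = 5) and 33.1 ± 3.5 (SD, n = 5). On the log2 scale the change was -0.17 (standard error 0.17, 95% interval -0.53 to 0.19), with an unadjusted p of 0.335 from edgeR. CS was the steadiest member. Its standard deviation within a diet was 0.21 on the log2 scale, and 91.5% of tested transcripts varied more.

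The first oxidation of the cycle turns isocitrate into 2-oxoglutarate. In the NAD-dependent isocitrate dehydrogenase it is carried out by a complex whose catalytic subunit is encoded by IDH3A and whose other subunits are encoded by IDH3B and IDH3G. IDH3A lies on the minus strand of chromosome 26, from 5184991 to 5205384. It had few reads, between 0 and 14 estimated counts per animal, and was therefore left out of the test. Its level on HFr was 3.01, 2.69, 1.61, 2.44 and 1.78 normalized counts in animals 1 to 5, and on chow it was 1.14, 1.97, 2.57, 0.505 and 0. All 5 HFr animals were above the chow mean of 1.24 ± 1.05 (SD, n = 5), and their own mean was 2.31 ± 0.597 (SD, n = 5), but the ranges overlapped. A two-sided exact permutation test over the animals gave p = 0.0952, and the smallest p it can give with 5 against 5 is 0.00794. In a fit of all transcripts with any count, edgeR's quasi-likelihood test gave a log2 fold change of 0.69 (standard error 0.53, 95% interval -0.40 to 1.78) and an adjusted p of 0.838.

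IDH3B lies on the plus strand of chromosome 2, from 53875390 to 53881716, and had 4 to 26 estimated counts per animal. Its level was 4.90, 5.83, 3.63, 4.67 and 3.56 normalized counts in HFr animals 1 to 5, and 5.26, 5.69, 4.40, 2.02 and 4.60 in chow animals 1 to 5. The lowest value belonged to chow animal 4, and the means of 4.52 ± 0.948 (SD, n = 5) and 4.39 ± 1.42 (SD, n = 5) were nearly equal. The fold change was 1.0, with a 95% interval from 0.744 to 1.34 and an unadjusted p of 0.999 from edgeR.

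IDH3G is on the X chromosome, on the minus strand from 128208063 to 128221527. Its level was 30.5, 31.4, 42.0, 47.1 and 39.2 normalized counts in HFr animals 1 to 5, and 25.4, 47.3, 28.8, 40.9 and 23.4 in chow animals 1 to 5. Chow animals 2 and 4 stood with the upper HFr animals, and the other 3 chow animals lay below every HFr animal. This gave a log2 fold change of 0.20 (standard error 0.22, 95% interval -0.27 to 0.67), with an unadjusted p of 0.380 from edgeR.

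IDH2 encodes the NADP-dependent mitochondrial isocitrate dehydrogenase, a homodimer that is not part of the IDH3 complex and that also supplies NADPH to the matrix. The gene lies on the minus strand of chromosome 29, from 8633715 to 8650657. Its level was 10.9, 30.3, 14.9, 32.4 and 17.4 normalized counts in HFr animals 1 to 5, and 17.8, 42.9, 25.3, 11.6 and 9.19 in chow animals 1 to 5. The highest and the lowest animal were both on chow, and they were 4.67-fold apart. The standard deviation within a diet was 0.75 on the log2 scale, beside a median of 0.36 over all tested transcripts, and 5.90% of tested transcripts varied more. The means were 21.4 ± 13.6 (SD, n = 5) on chow and 21.2 ± 9.59 (SD, n = 5) on HFr. IDH2 had a log2 fold change of -0.03 (standard error 0.39, 95% interval -0.86 to 0.79), with an unadjusted p of 0.930 from edgeR.

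**Figure D1:**
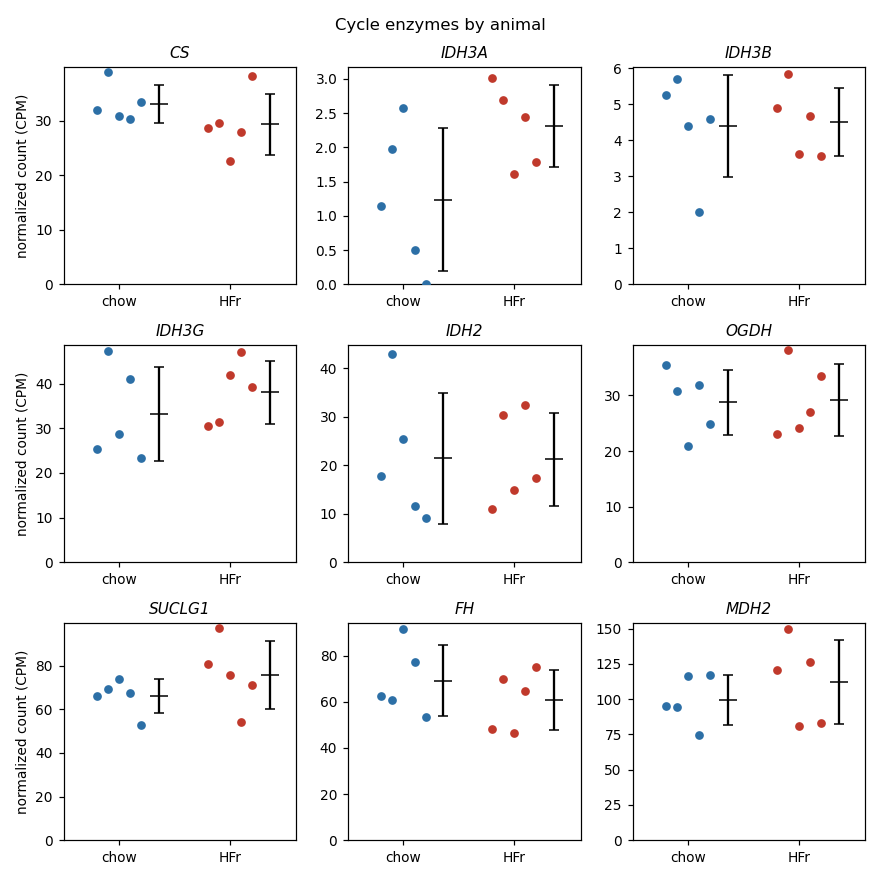
Normalized counts (CPM, not corrected for transcript length) of the 9 cycle enzymes, 1 panel per gene with its own vertical axis from 0. Each point is 1 animal, ordered 1 to 5 from left to right within chow (blue) and HFr (red), and the black bars are the mean ± SD of 5 animals. In every panel the points of the diets overlap, and IDH2 runs from 9.19 to 42.9.

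OGDH encodes the first component of the 2-oxoglutarate dehydrogenase complex, which makes succinyl-CoA. It lies on the minus strand of chromosome 21, from 13973845 to 14070731. Its level was 23.0, 38.1, 24.2, 27.1 and 33.4 normalized counts in HFr animals 1 to 5, and 35.4, 30.9, 20.9, 31.8 and 24.8 in chow animals 1 to 5. The animals of both diets were spread over the same range, with means of 29.2 ± 6.43 (SD, n = 5) and 28.8 ± 5.82 (SD, n = 5). OGDH had a log2 fold change of 0.03 (standard error 0.20, 95% interval -0.39 to 0.45), with an unadjusted p of 0.884 from edgeR.

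SUCLG1 encodes the subunit shared by both succinyl-CoA ligases, the enzymes that form succinate and a nucleoside triphosphate. It lies on the plus strand of chromosome 14, from 22712661 to 22748845. Its level was 80.6, 97.1, 75.8, 54.2 and 71.0 normalized counts in HFr animals 1 to 5, and 66.3, 69.4, 73.7, 67.2 and 52.9 in chow animals 1 to 5. Of the HFr animals, 4 were above the chow mean of 65.9 ± 7.84 (SD, n = 5), and 3 were above every chow animal. The difference was 0.20 on the log2 scale (standard error 0.18, 95% interval -0.19 to 0.58), with an unadjusted p of 0.288 from edgeR.

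Fumarase, encoded by FH on the minus strand of chromosome 25 from 78575300 to 78599972, hydrates fumarate to malate. Its level was 48.2, 70.0, 46.4, 64.4 and 75.0 normalized counts in HFr animals 1 to 5, and 62.6, 60.9, 91.7, 77.3 and 53.3 in chow animals 1 to 5. Chow animals 3 and 4 were above all HFr animals, and HFr animals 1 and 3 were below all chow animals. The means were 60.8 ± 12.9 (SD, n = 5) on HFr and 69.2 ± 15.3 (SD, n = 5) for chow, and the change was -0.18 on the log2 scale (standard error 0.20, 95% interval -0.61 to 0.25). Its unadjusted p from edgeR was 0.376.

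MDH2 encodes the mitochondrial malate dehydrogenase, which closes the cycle by remaking oxaloacetate and is also part of the malate-aspartate shuttle. It lies on the plus strand of chromosome 28, from 10294021 to 10313970. Its level was 121, 150, 81.1, 126 and 82.9 normalized counts in HFr animals 1 to 5, and 95.1, 94.6, 116, 74.3 and 117 in chow animals 1 to 5. HFr animals 1, 2 and 4 were above every chow animal, while the other 2 lay in the lower part of the chow range. The means were 112 ± 29.7 (SD, n = 5) on HFr and 99.5 ± 17.9 (SD, n = 5) for chow, and the change was 0.17 on the log2 scale (standard error 0.21, 95% interval -0.28 to 0.62). Its unadjusted p from edgeR was 0.424.

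The libraries of some animals stood high or low for several members. HFr animal 2 was the highest of all 10 for 4 members and chow animal 2 for 3, and chow animal 5 was the lowest for 4. No share over all tested transcripts is given for these counts, so they cannot be read as particular to the members. The mean log2 level of the 8 tested members was taken after the mean of each diet was removed. It was 0.27 above its diet in HFr animal 2 and 0.29 above it in chow animal 2. In chow animal 5 it was -0.23, and in HFr animal 3 it was -0.22. Across the 36 pairs of members, the correlation of log2 levels over the 10 animals had a median of 0.17 and ran from -0.38 to 0.71, and 25 pairs were positive. Over all pairs of tested transcripts the median was -0.00, and 49.9% of the pairs were positive, beside 69.4% of the pairs of members. The most correlated pair was IDH3B with MDH2 (Pearson's r = 0.71, permutation p = 0.0143, Spearman's rho = 0.67, permutation p = 0.0394). It did not pass Benjamini-Hochberg adjustment over the 36 pairs (0.514 for r and 0.709 for rho), and r was 0.46 without the 2 animals farthest from the median of the first gene. For IDH3A and IDH3B, subunits of the same complex, r was 0.42.

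The mean of the 8 tested members, after the mean of each diet was removed, was set beside other transcripts over the 10 animals. The transcripts with the profile most like it were ZW10 (r = 0.95), NPHP4 (r = 0.94), UQCRC1 (r = 0.94), SPHK2 (r = 0.94) and FCGRT (r = 0.93). They were the nearest of 7151 named nuclear transcripts, over which the 95th percentile of r was 0.71. UQCRC1 encodes a core subunit of respiratory complex III. The 8 tested members themselves correlated with their own mean, of which each is a part, between 0.30 and 0.93. The log2 levels were not standardized, so members that vary more weigh more in the mean, IDH2 most (standard deviation within a diet 0.75). Each profile is over the same 10 libraries, so all share the depth and the TMM factor of each library, and the values carry no test.

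The levels of the members were set beside the mitochondrial share of counts. All 9 members had a negative correlation with it over the 10 animals, where 51.2% of all tested transcripts did, and their median r was -0.44. The correlation was strongest for IDH2 (Pearson's r = -0.75, permutation p = 0.0162, Spearman's rho = -0.72, permutation p = 0.0238), and it was -0.57 for CS, for IDH3A and for IDH3B and -0.10 for IDH3G, whose r turned to 0.17 without chow animal 2 and to 0.10 without chow animal 5. Over the 9 members the adjusted values for IDH2 were 0.146 and 0.215, so none passed the Benjamini-Hochberg correction over all 10 animals. Without chow animal 2 and HFr animal 2, the pair farthest from the median share, r was -0.54 for IDH2 (permutation p = 0.170), and without chow animal 2 alone it was -0.64 (permutation p = 0.0659), so the relation rests in part on those animals. Without HFr animal 4 it was -0.89 (permutation p = 0.0012), with an adjusted value of 0.0108 over the 9 members. Of all tested transcripts, 2.06% had an r as low as that of IDH2. With the mitochondrial percent as a covariate in edgeR, the log2 fold change of IDH2 between the diets was 0.17, with an unadjusted p of 0.588. When the counts were scaled by library size without TMM, all 9 members had a permutation p under 0.05 with the share, and r for IDH2 was -0.88. The share is part of the library total there, so a nuclear transcript scaled this way tends to fall as the share rises. The number can therefore not be read as particular to the members. No value over all tested transcripts is given for this scaling.

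**Figure D2:**
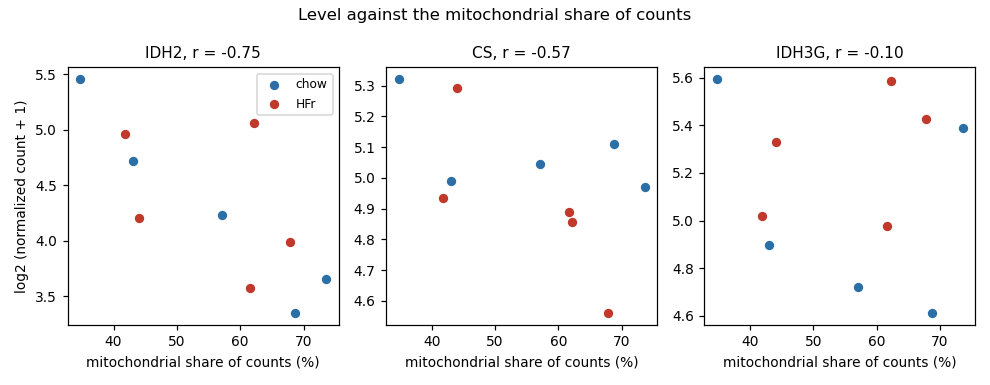
Level of IDH2, CS and IDH3G (log2 of the normalized count plus 1, vertical axes differ and do not start at 0) against the percent of counts on the mitochondrial genome, 1 point per animal, chow in blue and HFr in red. IDH2 falls from the animals with a low share to those with a high one (r = -0.75), CS less so (r = -0.57), and IDH3G shows little relation (r = -0.10).

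Ratios between members within a library do not depend on how the libraries are scaled, apart from the small number added to each count, so 6 of them were compared. Each is a difference of log2(estimated count + 0.5), and the diets were compared with a two-sided exact permutation test over all assignments of 5 of the 10 animals. The ratio of IDH3A to IDH3B was -0.94 ± 0.17 (SD, n = 5) on HFr and -2.06 ± 1.39 (SD, n = 5) on chow, a difference of 1.12 (exact p = 0.0397, 0.238 after Benjamini-Hochberg adjustment over the 6 ratios). The HFr animals lay close together, at -0.67, -1.08, -1.08, -0.90 and -0.96, and the chow animals were spread from -4.39 to -0.76. The value of -4.39 came from chow animal 5, which had 0 counts of IDH3A, so it rests on the 0.5 that was added. At such low counts a ratio also depends on the depth of the library. Without chow animal 5 the difference was 0.54 with an exact p of 0.0794. Without each HFr animal in turn the exact p lay between 0.0952 and 0.127. Without chow animal 3 it was 1.45 with an exact p of 0.00794, and without chow animals 1, 2 or 4 the exact p was 0.0397 as before.

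The ratios of the remaining pairs differed less than the spread between animals. IDH3A to IDH3G was -3.98 ± 0.57 (SD, n = 5) on HFr and -4.95 ± 1.28 (SD, n = 5) on chow (exact p = 0.167). Without chow animal 3 that difference was 1.35 with an exact p of 0.0476. IDH3B to IDH3G was -3.04 ± 0.50 (SD, n = 5) and -2.89 ± 0.79 (SD, n = 5) (exact p = 0.714). IDH2 to the sum of the IDH3 genes differed by -0.16 (exact p = 0.738, n = 5 each). That sum is mostly IDH3G, with 51 to 216 estimated counts per animal, beside 4 to 26 for IDH3B and 0 to 14 for IDH3A. MDH2 to CS, the last step against the first, was 1.91 ± 0.48 (SD, n = 5) on HFr and 1.57 ± 0.29 (SD, n = 5) on chow (exact p = 0.206). Without HFr animal 5 its difference was 0.53 with an exact p of 0.0317. OGDH to CS differed by 0.20 (exact p = 0.294, n = 5 each).

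**Figure D3:**
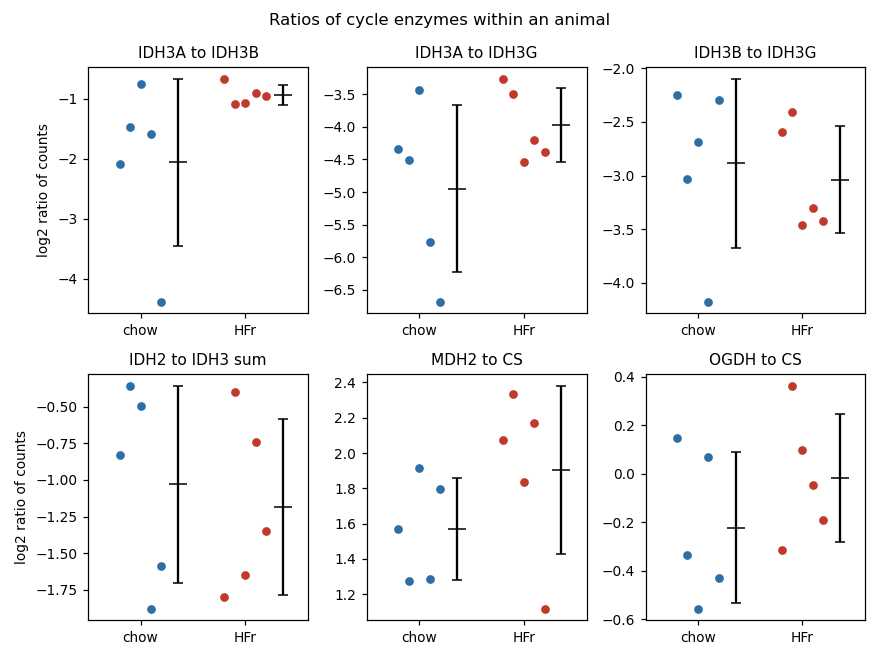
Log2 ratio of the estimated counts of 2 members within each animal (0.5 added to each count), 1 panel per ratio with its own axis. Points are animals 1 to 5 from left to right within chow (blue) and HFr (red), and black bars are the mean ± SD of 5 animals. For IDH3A to IDH3B the 5 HFr animals lie between -1.08 and -0.67, and chow animal 5, with 0 counts of IDH3A, lies at -4.39.

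Other genes of the pathway were taken from 7 lists with 67 genes, of which 54 matched a row by symbol and 36 had enough counts to be tested. Of the 36, 3 had an unadjusted p under 0.05, all higher on HFr, and 0 were lower, beside 4.29% of all tested transcripts under this threshold and 2.06% higher. After adjustment 0 passed, as for all tested transcripts. The median log2 fold change of the 36 was 0.01, with 21 positive and 15 negative, beside 3958 positive and 3990 negative over all tested transcripts. When the libraries were scaled by their size without TMM, 0 of the 36 had an unadjusted p under 0.05.

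Among the other subunits of the cycle enzymes, 5 were tested and 1 of them, DLST, was higher. SUCLG2, SUCLA2, SDHA, SDHC and SDHD matched no row by symbol and were not analysed here, in a table where 23.7% of transcripts carry no gene name. DLST encodes the second component of the same 2-oxoglutarate dehydrogenase complex as OGDH. Its level was 3.77, 2.69, 3.23, 3.55 and 6.33 normalized counts in HFr animals 1 to 5, and 2.74, 0.438, 3.30, 1.52 and 0.460 in chow animals 1 to 5. HFr animal 5 was the highest, chow animals 2 and 5 were the lowest, and chow animals 1 and 3 overlapped with the HFr range. It was 2.14-fold higher on HFr (95% interval 1.07 to 4.28), with an unadjusted p of 0.0345 from edgeR. These values rest on 1 to 32 estimated counts per animal. Without HFr animal 5 the log2 fold change was 0.83 with an unadjusted p of 0.122 from edgeR. The unadjusted p was 0.0826, 0.0614 and 0.0711 without chow animals 2, 4 and 5 in turn. OGDHL, which encodes an alternative first component, had 109 ± 12 normalized counts (SD, n = 5) on chow and 119 ± 28.3 (SD, n = 5) on HFr (log2 fold change 0.13, standard error 0.19).

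Of the pyruvate carriers and the pyruvate dehydrogenase complex with its kinases and phosphatases, 4 were tested, PDHB, PDHX, PDK2 and PDK4, and 1 was higher. PDK4 encodes a kinase that switches off pyruvate dehydrogenase and so limits the entry of pyruvate into the cycle as acetyl-CoA. Its level was 263, 162, 221, 115 and 187 normalized counts in HFr animals 1 to 5, and 89.6, 122, 108, 170 and 73.1 in chow animals 1 to 5. All 5 HFr animals were above the chow mean of 113 ± 37.2 (SD, n = 5), HFr animals 1, 3 and 5 were above every chow animal, and chow animals 2 and 4 reached into the HFr range. The level was 1.68-fold higher on HFr, 0.75 on the log2 scale (standard error 0.26, 95% interval 0.19 to 1.31), with an unadjusted p of 0.0120 from edgeR. It kept an unadjusted p under 0.05 without each animal in turn.

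Of the transcription regulators of mitochondrial enzyme genes, 3 were tested, PPARGC1A, ESRRA and NRF1, and 1 was higher. ESRRA encodes an orphan nuclear receptor, known to act with the PPARGC1A coactivator on genes of oxidative metabolism. Its level was 35.0, 45.3, 33.1, 42.7 and 39.2 normalized counts in HFr animals 1 to 5, and 29.2, 27.6, 32.1, 29.3 and 22.1 in chow animals 1 to 5. The diets did not overlap, and it was the only one of the 36 tested pathway genes of which this is true, while 0.541% of all tested transcripts did not overlap. ESRRA was 1.39-fold higher on HFr, 0.47 on the log2 scale (standard error 0.16, 95% interval 0.13 to 0.82), with an unadjusted p of 0.0103 from edgeR. PPARGC1A varied from 8.22 to 88.6 normalized counts among HFr animals and from 9.20 to 48.2 among chow animals (log2 fold change 0.44, standard error 0.58).

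**Figure D4:**
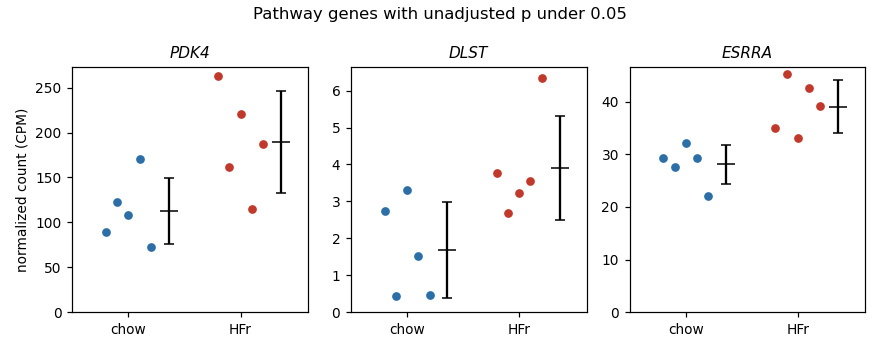
Normalized counts (CPM, axes from 0) of PDK4, DLST and ESRRA, the pathway genes with an unadjusted p under 0.05. Each point is 1 animal, ordered 1 to 5 within chow (blue) and HFr (red), and black bars are the mean ± SD of 5 animals. ESRRA is between 33.1 and 45.3 on HFr and between 22.1 and 32.1 on chow, without overlap.

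The remaining lists had 0 genes with an unadjusted p under 0.05. They held 8 tested enzymes that feed or drain the cycle, 6 cytosolic enzymes acting on the same intermediates, 4 carriers and 6 assembly factors and modifiers. PCK2, the mitochondrial phosphoenolpyruvate carboxykinase, had a log2 fold change of 0.01 (standard error 0.24), and its cytosolic counterpart PCK1 had -0.12 (standard error 0.28). SLC25A13, the aspartate-glutamate carrier of the liver, had -0.06 (standard error 0.20), and LONP1, a matrix protease, had 0.25 (standard error 0.17). The smallest p of these lists belonged to GOT2, the mitochondrial aspartate aminotransferase, which was picked out after its values were seen. It had 209 ± 36.7 normalized counts (SD, n = 5) on chow and 165 ± 22.3 (SD, n = 5) on HFr, and 0 of the HFr animals were above the chow mean. Its log2 fold change was -0.34 (standard error 0.18), with an unadjusted p of 0.0798 from edgeR.

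**Figure D5:**
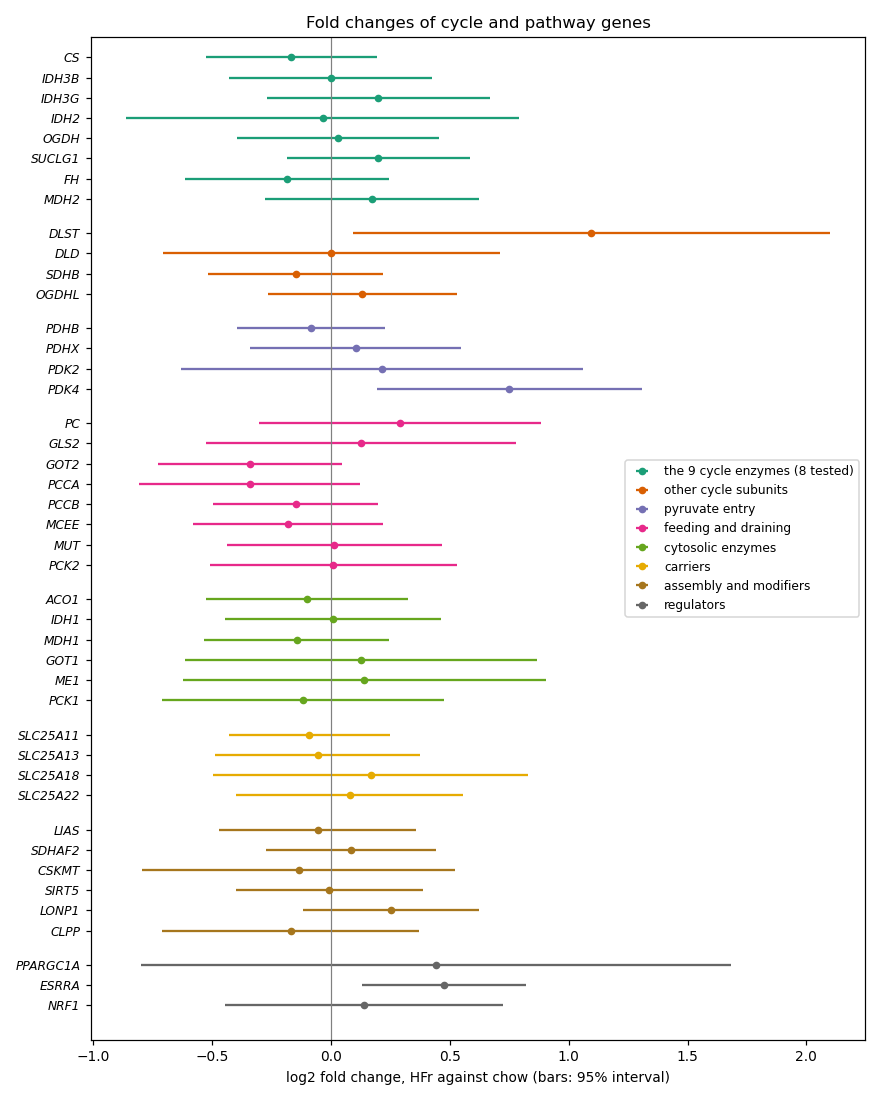
Log2 fold change, HFr against chow, with its 95% interval from edgeR, for the 8 tested cycle enzymes and 35 of the 36 tested pathway genes in 7 lists (MUT is the older symbol of MMUT). All 8 intervals of the cycle enzymes include 0, and those of DLST, PDK4 and ESRRA lie above it.

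Markers of other cell types in the liver were examined beside these values, where 4.29% of all tested transcripts had an unadjusted p under 0.05. Of the endothelial markers, 1 of 7 tested had an unadjusted p under 0.05, KDR (log2 fold change 0.57, standard error 0.19). The fold changes of 5 of the 7 were positive and 2 negative, VWF (-0.21) and CDH5 (-0.02), with a summed level of 219 to 239 normalized counts on HFr and 158 to 236 on chow. Of the stellate markers, 1 of 6 tested did, ACTA2 (-1.57, standard error 0.49), and 5 of the 6 fold changes were negative, with a sum of 224 to 407 on HFr and 180 to 827 on chow. These 4 genes were named after their values were seen. Of the macrophage, lymphocyte, blood, cholangiocyte and muscle lists 0 markers had an unadjusted p under 0.05. The blood list and the muscle list had only 1 tested marker each, so for them this rests on a single gene. The fold changes of the 6 tested macrophage markers were all positive (median 0.24 on the log2 scale), and those of the 2 tested cholangiocyte markers were negative. Of the 3 tested lymphocyte markers, 1 was positive and 2 were negative. The muscle list, with 3 of its markers at 0, reached 35.4 summed normalized counts in chow animal 5. Of this, 34.5 came from DES alone, so the sum does not stand for the list. DES was also named after its values were seen. The part of these cell types in the levels of PDK4, DLST and ESRRA was not tested.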

How the data were processed

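RNA-Seq was done on liver biopsies of 10 animals. Per the labels, the tools were CASAVA 1.8, FastQC, STAR 2.5.3a and Partek. Reads were aligned to ChlSab1.1, and Partek's expectation-maximization step shared them among Ensembl transcripts. The result, deposited by the authors as estimated counts, was not normalized. The authors also deposited normalized signal, scaled by TMM, with a ratio to the estimated count constant within 0.0015% per sample. That table was used only for the equal-variance test, an alternative. Reads that match similar genes can be split between them. Gene positions are those of the deposited table, with the listed stop left out.

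Estimated counts were rounded, and filterByExpr with a minimum count of 10 and a minimum total of 15 kept 7948 transcripts. The diets were compared in 1 fit over all of these by edgeR's quasi-likelihood test (edgeR 4.0.16, R 4.3.3). Libraries were scaled by TMM, diet was the only covariate, and p-values were adjusted by Benjamini-Hochberg over all tested transcripts. TMM factors ranged from 0.607 to 1.49, and biological variation within a diet was 29.0% (coefficient of variation). Ratios were compared with exact permutation tests, and correlations with 100000 permutations (scipy 1.17.1). Log2 levels used a pseudocount of 1.

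The fit was tested on simulated data for this comparison with 7948 transcripts. An unadjusted p under 0.05 was given to 86% of the 100 with a log2 change of 1 and to 100% of the 100 with a log2 change of 2. After adjustment 42% and 98% were called. Among the 7748 left unchanged, the share with an unadjusted p under 0.05 was 5.03%.

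The members and lists were chosen with earlier results of these data known. The genes named are all members, and from each list the genes with an unadjusted p under 0.05 and the gene with the highest mean normalized count. Also named are the 5 transcripts most correlated with the mean of the 8 tested members. GOT2, ACTA2, KDR, VWF, CDH5 and DES were named outside this rule. The alternatives were other normalizations and filters, DESeq2 1.42.0, limma 3.58.1 with a pseudocount of 1 or 0.1, the equal-variance test, the mitochondrial percent as a covariate, counts summed by gene, a replicate block, and each animal left out. List totals include 1 pathway gene whose own values are left out here. The proteome and metabolome were not analysed here.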

Additional observations from a re-analysis of the deposited data

How the results depend on the processing

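Under all 12 other settings and without each of the 10 animals in turn, 0 cycle enzymes had an unadjusted p under 0.05. Library size without TMM gave 123 transcripts with an unadjusted p under 0.05 and 1 after adjustment, against 341 and 0, and it gave 0 of the pathway genes. The unadjusted p from edgeR was then 0.0554 for DLST, 0.0542 for PDK4 and 0.198 for ESRRA. Testing every transcript with a count gave 756 transcripts, and DESeq2 gave 4 after adjustment. Without each animal in turn, the number with an unadjusted p under 0.05 ran from 260 to 408. GOT2 was under the threshold with DESeq2 and without chow replicate 1. The causes were not tested.

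Fold changes near 0 changed sign. That of IDH2 was 0.17 with the mitochondrial percent as a covariate, 0.077 with limma and a pseudocount of 1, 0.085 with a pseudocount of 0.1, 0.11 with the equal-variance test, and from -0.24 to 0.38 without each animal, highest without chow replicate 2. That of IDH3B was 0.031, 0.067, 0.094 and 0.080 under the same settings, 0.0030 with every transcript tested, and from -0.15 to 0.11 without each animal. That of PCK2 was -0.081 with library size only. Without each animal the range was -0.085 to 0.12 for OGDH, -0.028 to 0.21 for OGDHL, -0.12 to 0.19 for PCK2, -0.36 to 0.027 for PCK1, -0.17 to 0.044 for SLC25A13 and -0.12 to 0.73 for PPARGC1A. CS, IDH3G, SUCLG1, FH and MDH2 kept their direction under every setting and without every animal. Without each animal their ranges were -0.28 to -0.098, 0.097 to 0.37, 0.092 to 0.29, -0.27 to -0.058 and 0.047 to 0.27. The value nearest 0 came without HFr replicate 3 for CS, chow replicate 5 for IDH3G, HFr replicate 2 for SUCLG1 and MDH2, and chow replicate 3 for FH.

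Of the 6 ratios, 1 had an exact p under 0.05, and this number was from 0 to 2 without each animal. The difference ran from -0.47 to 0.0093 for IDH3B to IDH3G and from -0.37 to 0.012 for IDH2 to the IDH3 sum. With a pseudocount of 0 the ratios with IDH3A could not be computed, since 1 animal had 0 counts, and 0 of the others passed. Of the 9 correlations with the mitochondrial share, 1 had a permutation p under 0.05. This was 9 with library size only, where the share is part of the library total. It was 3 with the mean of each diet removed and from 0 to 2 without each animal. Without each animal, r for IDH3G ran from -0.25 to 0.17.

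A replicate block, with animals of the same number taken as pairs, gave 271 transcripts and 0 cycle enzymes, log2 fold changes of 0.032 for IDH2 and 0.043 for IDH3B, and 0 ratios by sign flips, where the smallest possible p is 0.0625. The correlation of same-numbered animals was from -0.29 to 0.10. The labels state no pairing, and these values cannot decide it, since animals matched by age or body weight need not correlate. Depth limits IDH3A, IDH3B and DLST, with 0, 4 and 1 counts in their lowest libraries.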
